A study of Homo sapiens with 2 samples.

Results

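The mitochondrial ribosomal proteins are the nuclear-encoded proteins that, with the rRNAs encoded by mitochondrial DNA, form the ribosome inside mitochondria. They were taken from the deposited table by their gene names, as MRPL or MRPS followed by a number and at most 1 letter from A to C, which gave 78 of 60978 genes. The mitochondrial ribosome, or mitoribosome, makes only the few proteins that mitochondrial DNA encodes, which are core subunits of the respiratory chain and the ATP synthase. Its own proteins are made in the cytosol and imported, so building it needs transcripts from both genomes. Some of its proteins descend from those of bacterial ribosomes, and others have no bacterial counterpart and lie mostly on the outside of the particle.

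The sequenced RNA came from MDA-MB-231, a long-established line of human breast cancer cells of the triple-negative, mesenchymal type. The Control library came from cells incubated for 24 h, and the CEL library from cells given 1 µM of an agent that the labels call CEL for the same 24 h. Each group held 1 library, and the labels name no vehicle for the Control cells and no replicate culture. The comparison asks which transcripts differed after the CEL incubation, but with 1 library per group it has no replicate check, so no test was made, and "higher" and "lower" describe these libraries only.

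The values are FPKM, the reads of a gene scaled by its length and by the total of reads counted in genes. FPKM is a share of a library, so more of these RNAs per cell and less of other RNAs cannot be told apart. The whole reads behind them could be recovered, 14821148 for Control and 17199398 for CEL. Each ratio of FPKM below carries an exact 95% interval for the counting of reads alone, which does not cover variation between cultures. The line's markers were present, with VIM at 399 and 350 FPKM and CD44 at 928 and 1024 FPKM in Control and CEL, and the receptor genes ESR1 and PGR had 0 reads in both libraries. The third receptor gene of the triple-negative label, ERBB2, was detected at 71.7 and 48.8 FPKM. The epithelial marker CDH1 was low at 0.791 and 0.183 FPKM, and EPCAM stood at 17.2 and 8.97 FPKM. Reads from the mitochondrial chromosome made up 7.14% of the Control library and 4.06% of the CEL library.

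Transcripts of the mitoribosome were on the whole more abundant in the CEL library. Of the 78 genes, 75 reached 1 FPKM in either library and are called measured here. Among these, 68 were higher in CEL and 7 were lower, where 50.2% of all 13745 measured genes were higher. The difference is given as the log2 fold, log2((CEL FPKM + 1)/(Control FPKM + 1)), in which the added 1 FPKM understates the difference of low genes. Its median was 0.41 over the 75 mitoribosome genes and 0.00 over all measured genes, with a range from −0.47 to 0.90 within the family. A log2 fold of at least 1.5-fold higher was found for 17 of the 75 genes (22.7%, against 8.97% of all measured genes), and 0 were at least 1.5-fold lower (10.2% of all measured genes). At a log2 fold of 0.32 the counts were 48 higher and 1 lower, against 21.8% and 22.8% of all genes. At 2-fold they were 0 and 0, against 2.7% and 3.24%. The family's difference was thus spread over many genes at a size below 2-fold.

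Summed over the 75 genes, the FPKM went from 2255.63 in Control to 3001.06 in CEL, a ratio of 1.33. The median member stood at 27.3 FPKM in Control and 36.5 FPKM in CEL. All 78 genes together held 37348 reads in Control, 0.252% of the library, and 56551 reads in CEL, 0.329%. The counting interval of the ratio lay above 1 for 60 genes, below 1 for 1 gene and across 1 for 14, where the shares over all genes were 29.9% above and 29.1% below. Counting error alone therefore left the direction unresolved for 14 members.

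**Figure D1:**
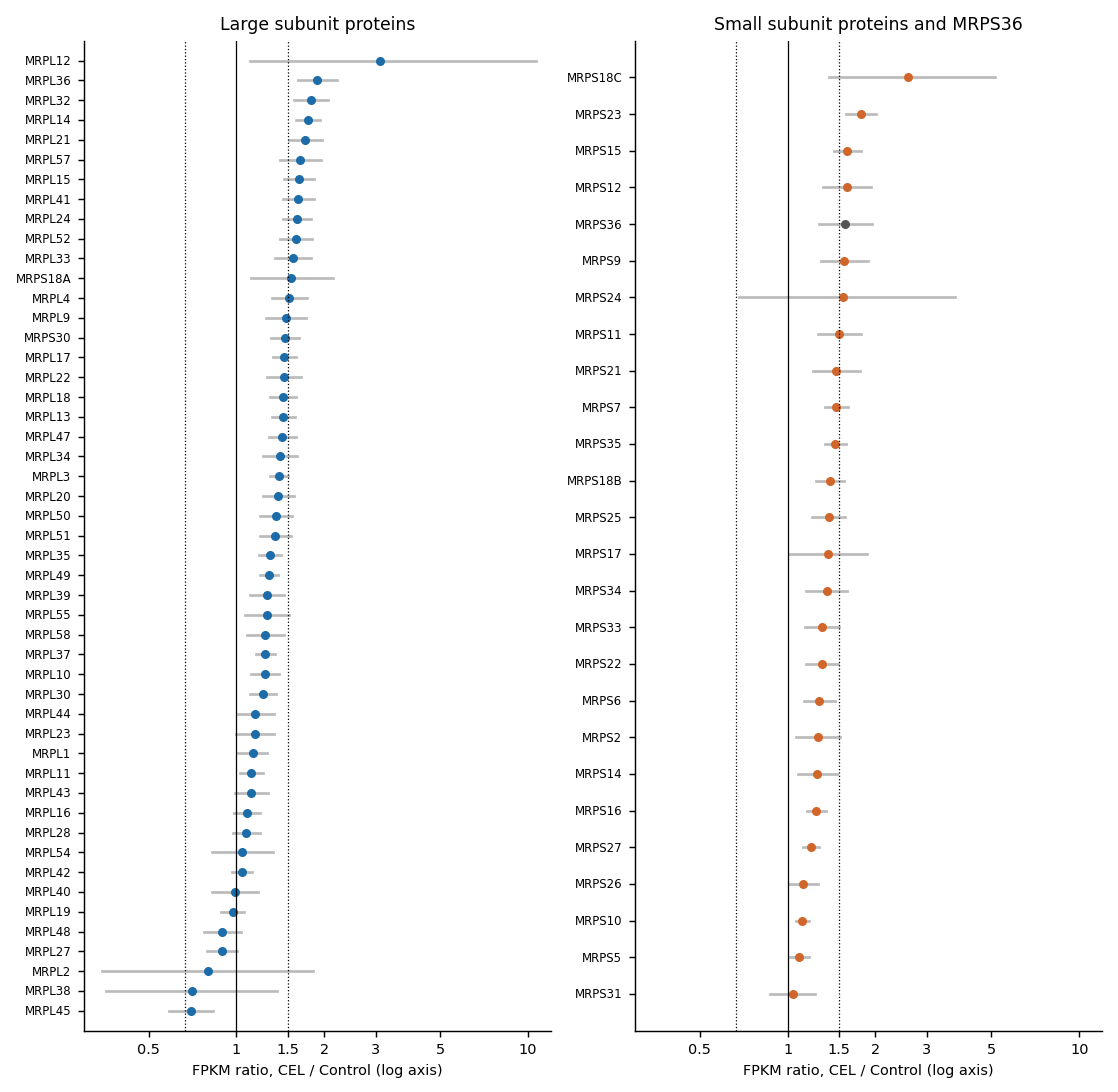
FPKM ratio of CEL to Control on a log axis for the 75 measured genes, with large-subunit proteins in blue on the left, small-subunit proteins in orange on the right and MRPS36 in grey; points are the ratios, bars their 95% counting intervals, the solid line a ratio of 1 and the dotted lines 1.5-fold either way. Most points lie between 1 and 1.5-fold higher, and MRPL45, at 0.700, is the one gene whose bar lies wholly below 1.

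The levels of most members were alike. The mean of both libraries lay from 10 to 100 FPKM for 64 of the 78 genes, and 2 genes exceeded that range. MRPS27, a pentatricopeptide repeat protein of the small subunit, had the highest mean, with 101 FPKM in Control and 122 FPKM in CEL. MRPL3, which reaches towards the peptidyl transferase centre, had 86.8 FPKM in Control and 122 FPKM in CEL. Next in order came MRPS10 with 79.8 and 89.6 FPKM, MRPL37 with 75.9 and 95.3 FPKM, and MRPL49 with 67.4 and 87.1 FPKM. Each of these 5 most abundant transcripts was higher in CEL by less than 1.5-fold.

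**Figure D2:**
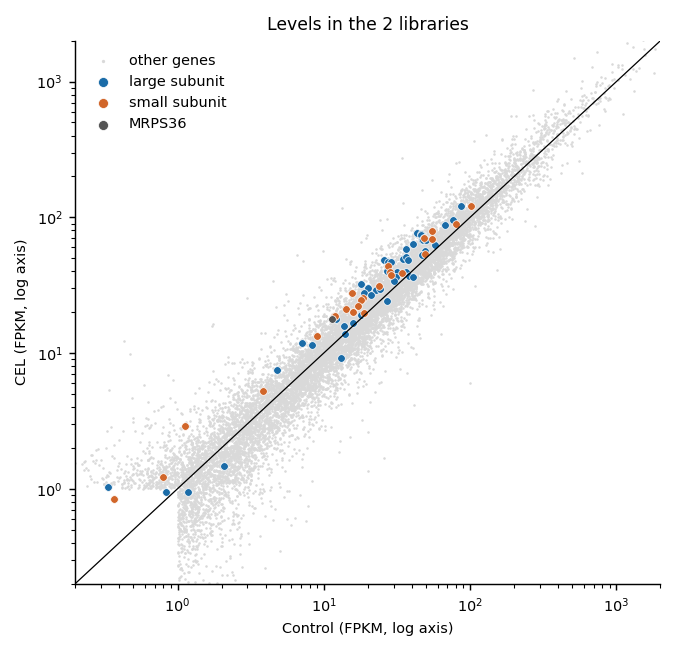
FPKM in the Control library against FPKM in the CEL library, both on log axes, for the mitoribosome genes with reads (colours by subunit) and for other measured genes (grey); the line marks equal values. Most members form a band between 10 and 100 FPKM just above the line, and a few lie near 1 FPKM.

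Among the 49 measured proteins of the large subunit, which forms peptide bonds, 11 were at least 1.5-fold higher in CEL, 42 were above 0 and the median log2 fold was 0.41. Among the 25 of the small subunit, which binds mRNA and reads codons, 5 were at least 1.5-fold higher, 25 were above 0 and the median was 0.38. The summed FPKM of the large subunit was 1541.76 in Control and 2066.94 in CEL, and that of the small subunit was 702.493 and 916.202. The ratio of the large to the small sum was 2.19 in Control and 2.26 in CEL, so the balance of the subunits' transcripts was close in the 2 libraries. The remaining gene, MRPS36, encodes a protein first listed as a ribosomal protein and since assigned to the oxoglutarate dehydrogenase complex of the citric acid cycle. It had 11.4 FPKM in Control and 17.9 FPKM in CEL, a ratio of 1.57 with an interval from 1.28 to 1.94.

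Split by ancestry, the 45 measured proteins with a bacterial counterpart had a median log2 fold of 0.49, with 12 at least 1.5-fold higher. The 27 without one had a median of 0.34, with 4 at least 1.5-fold higher. The same order held in the large subunit, at 0.50 for 30 proteins and 0.32 for 18, and was absent in the small subunit, at 0.37 for 15 proteins and 0.38 for 9. These are descriptions of 2 libraries, and the difference between the ancestry groups was not tested.

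With the pseudocount of 1 FPKM, the highest log2 fold was that of MRPL36, a small zinc-binding protein of the large subunit (chr5:1798385-1801366, minus strand, GRCh38). The plain ratios of MRPL12 and MRPS18C were higher but rest on few reads, and with the length trend removed MRPL36 stood at 0.47, below MRPS23 at 0.81. It had 25.7 FPKM from 249 reads in Control and 48.7 FPKM from 548 reads in CEL, a ratio of 1.90 with an interval from 1.63 to 2.21. MRPL32 (chr7:42932376-42948958, plus strand), whose precursor is cleaved by the m-AAA protease before it joins the ribosome, had 17.8 FPKM in Control and 32.2 FPKM in CEL, a ratio of 1.80 with an interval from 1.58 to 2.07. MRPL14 (chr6:44113451-44127452, minus strand) lies on the subunit interface at the place where the assembly factor MALSU1 binds. It had 43.6 FPKM in Control and 76.8 FPKM in CEL, a ratio of 1.76 with an interval from 1.60 to 1.94. In all 3 genes the lower bound of the interval was above 1.5.

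MRPS23 (chr17:57834781-57850056, minus strand), a small-subunit protein without a bacterial counterpart, had 15.5 FPKM from 426 reads in Control and 27.7 FPKM from 884 reads in CEL. Its ratio was 1.79 with an interval from 1.59 to 2.01, the largest difference in the small subunit among genes with at least 100 reads. MRPL21, a bacterial-type protein of the large subunit, had 27.3 FPKM in Control and 47.1 FPKM in CEL, a ratio of 1.73. Further large-subunit genes followed closely, with MRPL15 at 28.8 and 47.2 FPKM, MRPL41 at 46.5 and 75.7 FPKM, MRPL24 at 46.1 and 74.5 FPKM and MRPL52 at 36.7 and 58.9 FPKM. Their ratios lay from 1.60 to 1.64. The remaining genes past 1.5-fold included MRPS15 at 27.3 and 43.8 FPKM, MRPL57 at 7.10 and 11.8 FPKM, MRPL33 at 40.4 and 63.3 FPKM and MRPS12 at 11.7 and 18.6 FPKM. Just inside the threshold stood MRPL12 and MRPS9, with log2 folds of 0.61 and 0.60, and just outside it MRPL4 and MRPS11, with 0.58 and 0.55.

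At the other end, MRPL45 (chr17:38297023-38323217, plus strand) was the one member whose interval lay below 1. It sits at the exit of the peptide tunnel and helps to hold the ribosome to the inner membrane, where new peptides are inserted. It had 13.2 FPKM from 303 reads in Control and 9.20 FPKM from 246 reads in CEL, a ratio of 0.700 with an interval from 0.589 to 0.831. A pseudogene named after it, MRPL45P2, went the other way, with 55 reads in Control and 90 reads in CEL. Reads of near-identical copies may have been divided between them. Summed with both of its pseudogenes, MRPL45 had 359 Control reads and 337 CEL reads, a ratio of read shares of 0.809.

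MRPL27, a protein near the peptidyl transferase centre, had 41.0 FPKM in Control and 36.5 FPKM in CEL, a ratio of 0.891 with an interval from 0.792 to 1.00. MRPL48, in the central protuberance, had 26.9 and 24.1 FPKM, a ratio of 0.896 with an interval from 0.776 to 1.03. These 2 moderately abundant genes and MRPL45 were the lowest members with more than 100 reads, and the intervals of MRPL27 and MRPL48 reached 1. MRPL38 and MRPL2 were also lower but rested on few reads, 22 and 18 for MRPL38 and 14 and 13 for MRPL2. MRPL19 at 38.2 and 37.0 FPKM and MRPL40 at 14.0 and 13.8 FPKM were nearly equal. So were MRPS31 at 18.8 and 19.6 FPKM, MRPL42 at 18.1 and 18.9 FPKM and MRPL54 at 15.8 and 16.6 FPKM.

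By place in the particle, the 3 stalk proteins MRPL10, MRPL11 and MRPL12, which recruit translation factors, had log2 folds from 0.17 to 0.61. The 8 proteins around the exit tunnel had a median of 0.42, from MRPL45 at −0.47 to MRPL24 at 0.68. Other places of the particle lay lower or higher than these. The 5 measured proteins of the central protuberance had a median of −0.02 and 0 past 1.5-fold, from MRPL38 at −0.32 to MRPL18 at 0.53. The 4 placed near the peptidyl transferase centre also had a median of −0.02, from MRPL2 at −0.17 to MRPL3 at 0.48. In the small subunit, the 4 measured platform proteins had a median of 0.53, from MRPS6 at 0.34 to MRPS18C at 0.88. The 4 proteins listed here for the head had a median of 0.43, from MRPS10 at 0.17 to MRPS9 at 0.60. The 3 proteins at the mRNA entry and decoding site ranged from MRPS5 at 0.13 to MRPS12, which lines the decoding centre, at 0.63. Each of these groups is small, and several rest on genes with few reads. They are partial lists, since 44 of the 75 measured genes were assigned to none of these places, so ranges and medians hold for the listed genes only.

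The 3 MRPS18 genes descend from 1 bacterial ribosomal protein, and their products occupy different sites. MRPS18C, on the small-subunit platform, had 1.12 FPKM from 14 reads in Control and 2.90 FPKM from 42 reads in CEL, a ratio of 2.59 with an interval from 1.38 to 5.13. MRPS18A, placed in the large subunit, had 4.81 FPKM in Control and 7.44 FPKM in CEL, a ratio of 1.55 with an interval from 1.13 to 2.14. MRPS18B, in the small subunit, had 28.2 FPKM in Control and 39.4 FPKM in CEL, a ratio of 1.40 with an interval above 1. All 3 were higher in CEL, their intervals overlap, and MRPS18B was the most abundant in both libraries.

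A few members were listed at far lower levels than the rest, and most of these were genes whose exons lie largely within other annotated genes. In GENCODE release 29, 8 members had at least 50% of their principal transcript covered by exons of other genes, on either strand. These 8 had mean levels from 0 to 6.13 FPKM with a median of 0.948 FPKM, and all 8 were among the 10 lowest members, with MRPL2 and MRPS17 as the others. The 47 members with no such cover had mean levels from 9.43 to 111 FPKM with a median of 37.2 FPKM, and the 23 between these had a median of 25.1 FPKM. MRPS24 was covered over 85.7% of its length, most by the readthrough gene URGCP-MRPS24, and MRPS18C over 78.9%, most by ABRAXAS1 on the opposite strand. MRPL12 was covered over 68.2%, most by the locus AC139530.2, and MRPS18A over 56.9%, most by RSPH9. The most covering partner had 0 reads in both libraries for 4 of the 8. The sources used here do not give the strand and overlap settings of the authors' counting, and the part of overlap in these low levels was not tested.

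MRPL53, covered over 52.3%, had 0 reads in both libraries, and a count of 0 allows up to 3 reads, or 0.425 FPKM in Control and 0.366 FPKM in CEL. The other genes below 1 FPKM in both libraries were MRPS28, with 3 and 8 reads, and MRPL46, with 22 and 29 reads. MRPL12, the stalk protein that contacts elongation factors, had 5 Control reads and 18 CEL reads, a ratio of 3.10 with an interval from 1.11 to 10.7. The levels of these genes are uncertain. The family's difference was of the same size without them, since the 47 members with no covered base in the principal transcript had a median log2 fold of 0.41, with 12 at least 1.5-fold higher. Processed pseudogenes are common for this family, and 35 members had 76 pseudogenes named after them, which together held 87 reads in Control and 105 in CEL. The 34 measured members with such a pseudogene had a median log2 fold of 0.42 and the 41 without had 0.38.

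**Figure D3:**
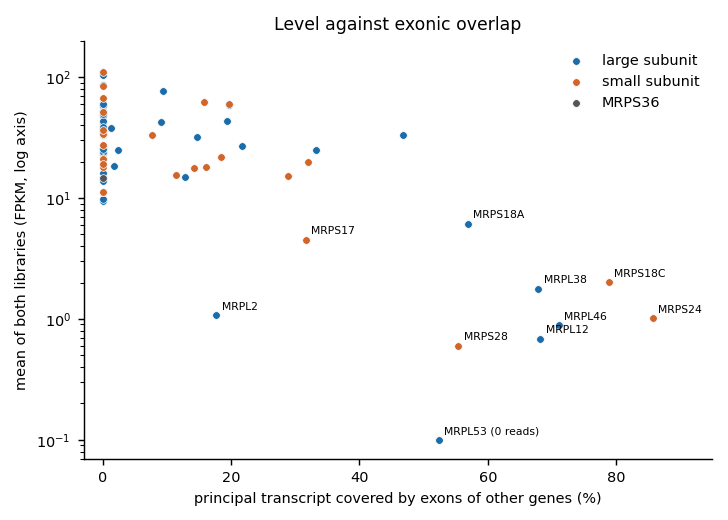
Mean FPKM of both libraries (log axis) against the percentage of each member's principal transcript covered by exons of other genes, with points coloured by subunit and the 10 lowest members named; MRPL53 has 0 reads and is drawn at the bottom of the axis as a stand-in. The 8 members covered over at least 50% lie between 0 and 6.13 FPKM, below all 47 members with no cover.

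Short transcripts as a whole were higher in the CEL library, and mitoribosome transcripts are short. Their deposited gene lengths had a median of 1042 bases, against 1511 bases over all measured genes. Over 11488 protein-coding genes the log2 fold and the length had a Spearman correlation of −0.25, as a description across genes of the same pair of libraries. Between 846 and 1268.5 bases, the middle of the family's lengths, 37 members had a median log2 fold of 0.47 with 21.6% at least 1.5-fold higher, and 2721 other protein-coding genes had a median of 0.11 with 10.8% higher. Among the 2128 of these that reached 10 FPKM in either library, the median was 0.14 with 11.3% higher. In the shortest of 10 equal classes of length, up to 920 bases, 27 members had a median of 0.47 and 1122 other genes 0.28, with 19 of the 27 members above the median of the others. In the next class, up to 1099 bases, 21 members had a median of 0.52 and the others 0.13, with 18 of the 21 above it. In the median, members were therefore higher than other genes of their length, and the gap was smallest among the shortest genes of these 2 classes.

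A trend with length was taken from protein-coding genes of at least 10 FPKM in either library, members included. When it was subtracted from every gene, the members' median went from 0.41 to 0.24, beside −0.04 over all genes. At least 1.5-fold higher were then 6 members (8.0%, against 6.07% of all genes) and at least 1.5-fold lower was 1, MRPL38 with 22 and 18 reads (13.0% of all genes). When it was subtracted within bins of expression, the median was 0.26 beside −0.02 over all genes, with 5 members higher (6.67%, against 6.87% of all genes) and 0 lower (11.5% of all genes). With length accounted for, the share of members past 1.5-fold higher was thus near that of all genes, while 58 of the 75 members were above 0 in both forms. The genes MRPS18C, MRPL32, MRPS23 and MRPL57 were past 1.5-fold higher in both. Within the family, the log2 fold had a Spearman correlation of −0.13 with length, 0.08 with mean FPKM, 0.01 with GC content and 0.04 with exonic overlap over 75 genes.

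**Figure D4:**
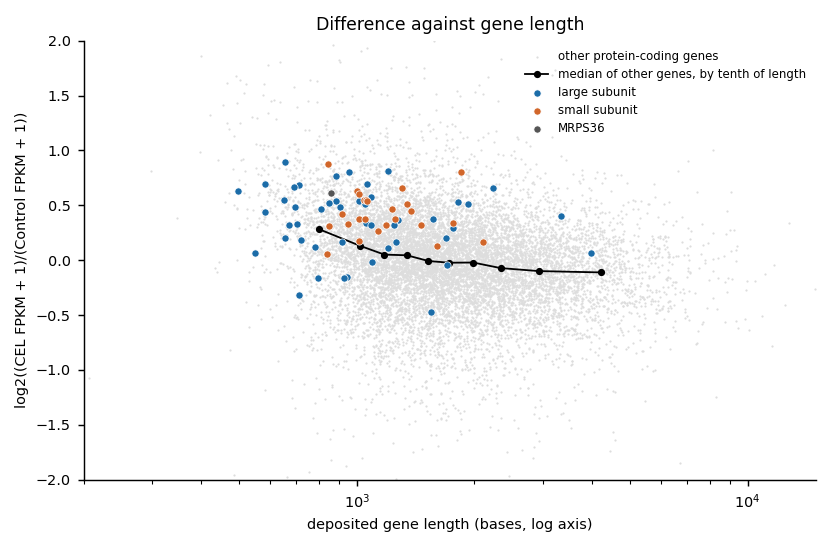
Log2 fold against deposited gene length (log axis) for mitoribosome genes (colours by subunit) and other protein-coding genes (grey, those within 2 log2 units of 0), with the medians of the other genes in 10 classes of length joined in black. The black line runs from 0.28 in the shortest class to −0.11 in the longest, and most members lie above it.

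Many mitoribosome genes start beside another gene on the opposite strand, and these neighbours differed less in the median. In GENCODE, 29 members had a protein-coding neighbour starting within 1000 bases on the other strand, and 22 pairs had both genes measured and a neighbour outside the family. The members of these pairs had a median log2 fold of 0.49, with 21 above 0 and 7 at least 1.5-fold higher. The neighbours had a median of 0.10, with 13 above 0, 3 at least 1.5-fold higher and 1 at least 1.5-fold lower. Of all measured genes, 50.2% were above 0, 8.97% at least 1.5-fold higher and 10.2% at least 1.5-fold lower. The member exceeded its neighbour in 15 pairs. Gene lengths were not matched in these pairs, and the part of the length trend in this gap was not tested. MRPL36 and its neighbour NDUFS6, a subunit of respiratory complex I, start 34 bases apart and were nearly equal in log2 fold, at 0.90 and 0.92. MRPL51 had a log2 fold of 0.44 beside NCAPD2, a condensin subunit, at −0.72. MRPL49 stood at 0.37 beside FAU, which encodes a cytosolic ribosomal protein fused to a ubiquitin-like one, at 1.58. The 78 genes lie on 21 chromosomes, with 8 each on chromosomes 1, 2 and 17, so they do not form a cluster in the genome.

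The promoters of the family are shown because its members moved mostly in 1 direction, and motifs known from genes for mitochondrial proteins could be looked for in them. RefSeq promoter windows on GRCh38.p14, from 250 bases before to 50 bases after the gene start, were given for 69 of the 78 genes. On either strand, the ETS-family motif CCGGAAG was found for 30 of the 69 genes (43.5%), against 12.2% of all 27305 genes with a window. The YY1 motif AAGATGGC was found for 21 genes (30.4%, against 3.52%) and the palindromic NRF1 core TGCGCA for 15 genes (21.7%, against 9.76%). At least 1 of the 3 was found for 49 genes (71.0%, against 22.3%), and 17 genes held at least 2 of them. The longer ETS form CCGGAAGT, which contains the shorter one, was found for 12 genes (17.4%, against 4.95%), and the full NRF1 palindrome for 1 gene (1.45%, against 1.52%). Among 15843 protein-coding genes the shares were 16.5% for the ETS motif, 4.66% for YY1 and 12.7% for the NRF1 core. For at least 1 of the 3 the share was 29.2%. A motif counted where any window of a gene held it, and 11 of the 69 genes had several windows. A match is a run of letters and not a bound site, and binding was not measured in these libraries.

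Members with a motif were not always the ones with the larger difference. The median log2 fold was 0.53 for 15 measured members with the NRF1 core and 0.35 for 52 without it. It was 0.38 for 29 with the ETS motif and 0.46 for 38 without it, and 0.47 for 20 with YY1 and 0.37 for 47 without it. The windows below, 250 bases each up to the gene start, belong to 3 members with high and 2 with low log2 folds. They are examples and not a full ranking, since not every member was considered. Each of these members holds a match, printed in capitals, and has 1 window, no divergent coding neighbour and at least 100 reads. The windows come from RefSeq on GRCh38.p14 and are written on the gene's strand, so CTTCCGG is CCGGAAG read from the other strand. Starts are those of RefSeq and can differ from the deposited ones. All of these windows but that of MRPS18A run past the start of the deposited gene. That start is 38297023 for MRPL45, 57850056 for MRPS23, 27771717 for MRPL33 and 73787872 for MRPL48. The matches of MRPS23 and MRPL33 reach into the deposited gene. The match begins 14 bases before the start in MRPS23 (chr17:57850045-57850294, minus strand), 8 in MRPL33 (chr2:27771469-27771718, plus strand), 31 in MRPS18A (chr6:43687792-43688041, minus strand), 63 in MRPL48 (chr11:73787624-73787873, plus strand) and 190 in MRPL45 (chr17:38296918-38297167, plus strand). The first 4 hold the ETS motif, with log2 folds of 0.80, 0.63, 0.54 and −0.15, and MRPL45 holds the NRF1 core with −0.47. The ETS motif thus stood before the RefSeq starts of genes that were higher and of MRPL48. The direction of MRPL48 was unresolved, with an interval from 0.776 to 1.03.
MRPS23: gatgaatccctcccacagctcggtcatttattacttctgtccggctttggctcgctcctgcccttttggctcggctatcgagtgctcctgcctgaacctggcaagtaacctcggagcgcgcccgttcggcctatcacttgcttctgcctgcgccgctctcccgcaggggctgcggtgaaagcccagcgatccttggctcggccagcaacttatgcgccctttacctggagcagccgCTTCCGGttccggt
MRPL33: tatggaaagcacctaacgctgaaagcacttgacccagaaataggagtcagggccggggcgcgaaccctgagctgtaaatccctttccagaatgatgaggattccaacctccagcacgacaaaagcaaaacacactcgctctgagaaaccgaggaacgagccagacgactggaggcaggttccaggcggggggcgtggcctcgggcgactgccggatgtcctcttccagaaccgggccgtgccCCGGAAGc
MRPS18A: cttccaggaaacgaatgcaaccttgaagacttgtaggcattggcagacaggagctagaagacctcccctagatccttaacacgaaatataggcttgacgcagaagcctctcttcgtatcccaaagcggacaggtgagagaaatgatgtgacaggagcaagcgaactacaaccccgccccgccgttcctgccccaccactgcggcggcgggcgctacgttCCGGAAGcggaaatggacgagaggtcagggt
MRPL48: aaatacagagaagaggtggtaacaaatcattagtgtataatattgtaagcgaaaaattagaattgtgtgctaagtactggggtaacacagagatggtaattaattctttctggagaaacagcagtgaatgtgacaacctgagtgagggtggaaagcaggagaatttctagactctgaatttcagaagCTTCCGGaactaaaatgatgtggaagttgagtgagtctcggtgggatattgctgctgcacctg
MRPL45: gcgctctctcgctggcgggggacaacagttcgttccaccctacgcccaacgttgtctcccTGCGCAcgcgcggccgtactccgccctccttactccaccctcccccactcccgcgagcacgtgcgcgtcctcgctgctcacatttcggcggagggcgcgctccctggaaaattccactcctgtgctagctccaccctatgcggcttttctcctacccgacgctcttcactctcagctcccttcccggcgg

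Other transcripts of mitochondrial translation were compared from lists of the pathway. Of the 5 proteins of the mitoribosome whose genes carry other names, 3 were at least 1.5-fold higher (60%, against 8.97% of all measured genes). Their median log2 fold was 0.68. CHCHD1 of the small subunit had 16.5 FPKM in Control and 31.8 FPKM in CEL, a ratio of 1.93. DAP3, the GTP-binding protein of the small subunit, had 149 FPKM from 1911 reads in Control and was 1.68 times as high in CEL, with 3724 reads. GADD45GIP1 of the large subunit had 24.5 and 39.7 FPKM, a ratio of 1.62. AURKAIP1 had 69.9 and 94.4 FPKM, and PTCD3, a pentatricopeptide repeat protein, was nearly level at 199 and 204 FPKM.

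Factors that act on the mitoribosome without being part of it differed less than its proteins. Of 15 translation factors 13 were measured, 0 were past 1.5-fold either way and their median log2 fold was 0.14. Over all measured genes, 8.97% were past 1.5-fold higher and 10.2% past 1.5-fold lower. The elongation factor TUFM had 84.6 FPKM in Control and 107 FPKM in CEL, and MTFMT, which formylates the initiator tRNA, had 171 Control reads and 149 CEL reads, a ratio of 0.751. Of 25 assembly and rRNA modification factors 24 were measured, 0 were past 1.5-fold and the median was 0.19. MALSU1, which binds at MRPL14, had 19.5 FPKM in Control and 28.7 FPKM in CEL, the highest log2 fold of the list at 0.54, with DDX28 next to it at 0.54. With the length trend subtracted the medians were 0.10 for the translation factors, 0.12 for the assembly factors and 0.24 for the mitoribosome genes.

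The RNA of the mitoribosome went the other way from its proteins' transcripts. MT-RNR1, the rRNA of the small subunit, had 492 FPKM in Control and 346 FPKM in CEL, a ratio of 0.703. MT-RNR2, the rRNA of the large subunit, had 4231 and 3997 FPKM, a ratio of 0.945. Of the 13 mRNAs that the mitoribosome translates, 8 were at least 1.5-fold lower (61.5%, against 10.2% of all genes). At least 1.5-fold higher was 1 (7.69%, against 8.97% of all genes), and the median log2 fold was −0.67. MT-CO1, which encodes a core subunit of cytochrome c oxidase, had 13308 FPKM in Control and 5031 FPKM in CEL. The sources used here do not say how rRNA was removed or mRNA selected before sequencing, and its part in the rRNA values was not tested. Scaled to the reads outside the mitochondrial chromosome, the mitoribosome genes kept a median log2 fold of 0.37, with 15 at least 1.5-fold higher.

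**Figure D5:**
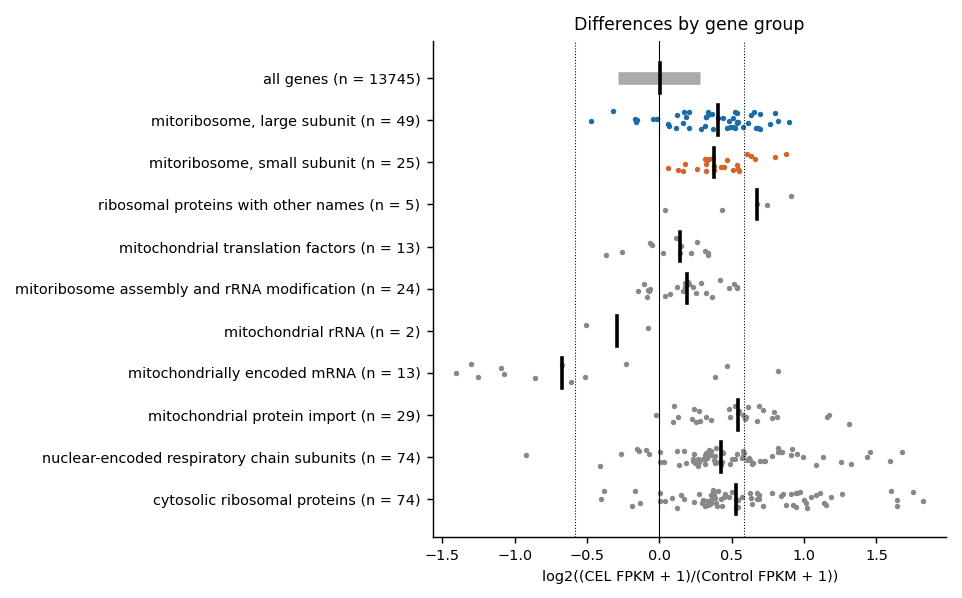
Log2 fold, log2((CEL FPKM + 1)/(Control FPKM + 1)), of each measured gene (points, shifted at random in height) by gene group, with black bars for the medians, dotted lines at 1.5-fold either way and, for all genes, a grey bar from the lower to the upper quartile (−0.29 to 0.28). Both ribosomal subunits have medians near 0.4, above the translation factors at 0.14 and the assembly factors at 0.19, and the mitochondrially encoded mRNAs have a median of −0.67. Higher medians are those of respiratory chain subunits (0.42), cytosolic ribosomal proteins (0.53), protein import (0.54) and ribosomal proteins with other names (0.68).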

How the data were processed

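The deposited table holds FPKM per gene, which the authors computed; the submitters' processing notes name HTSeq 0.5.4 and the GRCh38 build. The sources used here do not give the aligner, annotation release, strand setting or filters. Libraries were made from total RNA with the NEBNext Ultra kit, per the labels' protocols.

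Gene lengths are deposited beside the FPKM. Whole reads were recovered from the FPKM and the length, or the length plus 1 base for 31.3% of genes, at a relative tolerance of 1e-06. This gave whole reads for 100% of 24783 genes above 0. Genes without a name, 354 in all, were left out; they held 0.298% of reads in Control and 0.265% in CEL.

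A gene counted as measured where it reached 1 FPKM in either library. The log2 fold used a pseudocount of 1 FPKM and a threshold of 1.5-fold. Intervals are exact conditional binomial ones on the reads, cover counting error only, and reads are not independent molecules. No test was made, since each group held 1 library. Exon overlap, GC content and neighbours came from GENCODE 29, in which all 78 members were matched by gene ID, 34 with the same coordinates as deposited. The script was tested on simulated counts. The tools were scipy 1.17.1, pandas 2.3.3, numpy 2.4.6 and matplotlib 3.10.9 under Python 3.11.15.

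Genes were named by rank of log2 fold (10 highest, 10 lowest), by level (5 highest, 3 lowest), by place in the ribosome, as MRPS18 paralogs and as extremes of the other lists. The mitoribosome proteins with other names and MRPS36 were also in the plan. NCAPD2, FAU, NDUFS6 and the overlapping partners were named for their position after values were seen. The members and lists were chosen with earlier results of these data known.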

Additional observations from a re-analysis of the deposited data

How the results depend on the processing

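No paired analysis was possible because each group held 1 library. The count of 17 mitoribosome genes at least 1.5-fold higher became 11 with a pseudocount of 5 FPKM (14.7% of members, 4.39% of all genes), 6 with the length trend removed (8.0% and 6.07%), 5 with it removed within expression bins (6.67% and 6.87%), 11 among the 37 members sharing no exonic base with another gene, 10 among the 41 with no pseudogene named after them, 0 at 2-fold and 48 at a log2 fold of 0.32. The last 4 follow from fewer genes or another threshold. A larger pseudocount makes every log2 fold smaller in size, and the length corrections subtract a trend that is above 0 for short genes. The cause of that length trend was not tested. The count of 0 lower became 1 with the length trend removed and 1 at the log2 fold of 0.32, MRPL38 and MRPL45 in turn. The median log2 fold of 0.41 became 0.24 with the length trend removed and 0.26 within expression bins. Under the other alternatives run (pseudocount 0.1, no filter, a filter at 5 FPKM, TPM, median ratio, upper quartile and nuclear scaling, GC trend removed, and the 5 proteins of other names in place of MRPS36) the higher count lay from 14 to 19 and the lower count stayed at 0. Of 294 values for 27 named genes, 266 moved by less than their counting interval and 28 by more. The sign changed in 7, all within members near 0: MRPL54 and MRPS31 under both length corrections, and MRPL42, MRPS31 and MRPL40 under the GC correction. Members outside these 27 also changed sign under both length corrections, among them MRPL58 from 0.32 to −0.10 and −0.04. MRPL23 went from 0.21 to −0.22 and −0.15, while 58 of the 75 measured members were above 0 in both. Reads limit MRPL12, MRPL2, MRPL38, MRPS18C, MRPS24, MRPS28 and MRPL46, each under 50 reads in both libraries.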

Other observations

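Among other transcripts for mitochondria, genes of protein import, of all its branches, differed by more in the median than the mitoribosome genes themselves. Of 29 measured import genes 12 were at least 1.5-fold higher in CEL (41.4%, against 8.97% of all measured genes). At least 1.5-fold lower were 0, against 10.2% of all measured genes, and the median log2 fold was 0.54. TOMM7, a small subunit of the outer-membrane translocase, had 21.3 FPKM in Control and 54.3 FPKM in CEL, a ratio of 2.54. The intermembrane chaperones TIMM8B, at 18.7 and 43.3 FPKM, and TIMM13, at 27.6 and 62.8 FPKM, had ratios of 2.32 and 2.27. With the length trend removed the import genes had a median of 0.42 and the mitoribosome genes 0.24. At least 1.5-fold higher were then 7 of the 29 import genes, against 6.07% of all genes.

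Nuclear-encoded respiratory chain subunits had a median of 0.42, with 26 of 74 at least 1.5-fold higher (35.1%, against 8.97% of all genes). At least 1.5-fold lower was 1 (1.35%, against 10.2% of all genes). NDUFA3 of complex I stood at 3.70 FPKM in Control and 14.0 FPKM in CEL. With the length trend removed the respiratory chain subunits had a median of 0.16, with 10 of 74 at least 1.5-fold higher and 2 lower. The shares over all genes were then 6.07% higher and 13.0% lower. Cytosolic ribosomal proteins had a median of 0.53, with 33 of 74 at least 1.5-fold higher (44.6%, against 8.97% of all genes). At least 1.5-fold lower were 0, against 10.2% of all genes, and RPL39 had 17.9 and 65.7 FPKM. With the length trend removed the cytosolic ribosomal proteins had a median of 0.31. At least 1.5-fold higher were then 17 of 74 (6.07% of all genes) and lower 2 (13.0% of all genes). These lists were chosen with earlier results of these data known, and the differences between lists were not tested.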
